A study of Saccharomyces cerevisiae with 7 samples.

Results

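Heat shock in budding yeast was followed here by the nascent RNA of cells that kept Hsf1 in the nucleus. The comparison sets the 39 °C column of the deposited table over its 30 °C column, both from cultures without rapamycin, for 4585 of the 5732 genes in the table. The 4585 are the genes whose mean over the 4 nascent RNA columns reached the 20th percentile, a value of 14.442 normalized reads. The nearest gene under that value was XPT1, with a mean of 14.4 and a log2 ratio of -0.22, and the nearest above it was SIR2, with a mean of 14.5 and a ratio of -1.24. The strain in all 4 columns was DPY1283, labelled Hsf1-AA, Rpb3-FLAG. Hsf1, the activator of chaperone genes, carries an anchor-away tag, so that rapamycin can pull it out of the nucleus, and Rpb3, a subunit of RNA polymerase II, carries the FLAG tag. One group was the 30 °C control and the other heat shock at 39 °C, neither with rapamycin. The other columns hold the same temperatures with 1 µM rapamycin and serve here only for side-by-side values. The time at 39 °C is not given for the nascent RNA samples in the sources used here. All groups carried both tags, and no strain without them was analysed here. The other 3 samples of the series measured Hsf1 binding and were not used here.

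Nascent RNA is RNA still held by the polymerase, so it follows the act of transcription more closely than the pool of finished messages does. A yeast culture moved to 39 °C keeps living but rearranges its transcription within minutes. Hsf1 switches on chaperones, the kinases of the Ras and protein kinase A route lose influence, and the stress activators Msn2 and Msn4 then act on genes of carbohydrate storage, oxidant defence and protein turnover. Genes for making ribosomes are turned down. Chaperones and ribosomes are set aside below, and the account covers the other functions.

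Each column is the authors' mean for its condition, so none of the differences has a replicate check, a test or an SD. A gene is called higher or lower when its log2 ratio, computed after adding 2.851 normalized reads to both values, is at least 1 or at most -1, a difference of 2-fold on that scale. The scale understates the change of genes with few reads. Errors given as SE cover counting only. Values written as going from one number to another are normalized reads at 30 °C and then at 39 °C, and ratios are log2 ratios. Positions of genes are those of the RefSeq assembly R64 of the reference strain. The columns summed to 377862 at 30 °C and 433510 at 39 °C, and the counting error of a value at the median gene was 11.3% and 13.4%. The values are not divided by gene length, so a level is compared with the same gene's level at the other temperature and not between genes. Totals over a list are given as a share of a column's total. HSF1 itself had 78.7 normalized reads at 30 °C and 113 at 39 °C, and RPB3 had 42.0 and 32.9. As a check of the label, the heat shock gene SSA4 went from 28.5 to 3610.2, a log2 ratio of 6.85.

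At 39 °C, 740 genes were at least 2-fold higher, which is 16.1% of the 4585, and 820 were at least 2-fold lower, which is 17.9%. When the columns were rescaled to one total, 590 were higher and 1018 lower, because that step moves the median of the 4585 log2 ratios from 0.0113 to -0.17. Higher and lower below are therefore relative to the median gene. The changes were wide. At 4-fold 237 genes were higher and 299 lower, at 8-fold 95 and 112, and at 16-fold 43 and 21. Within 1.5-fold lay 44.3% of the kept genes. The higher genes had a median of 22.6 normalized reads at 30 °C and 83.9 at 39 °C. Together they held 8.13% of the 30 °C column and 36.4% of the 39 °C column. The lower genes had medians of 68.0 and 14.0, and their share was 30.6% at 30 °C and 7.53% at 39 °C. The higher genes thus had the smaller median at 30 °C and the lower genes the larger one, an order that a rule on ratios favours by its construction.

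**Figure D1:**
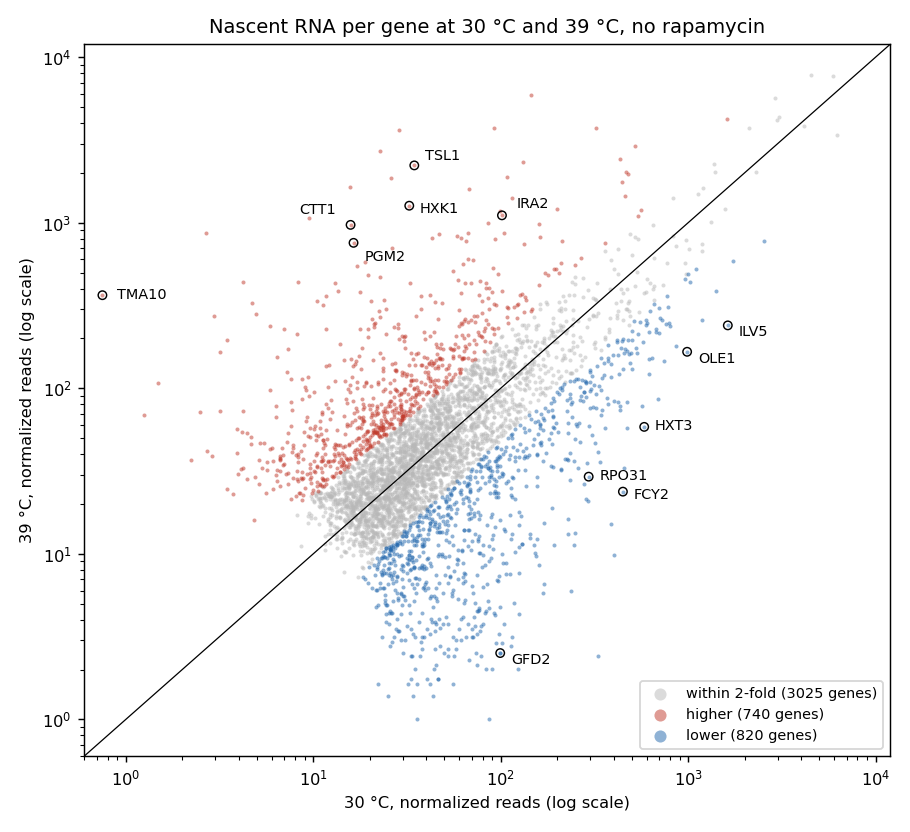
Normalized reads of each of the 4585 kept genes at 30 °C (x axis) and at 39 °C (y axis), both on log scales, without rapamycin. Red points are the 740 genes at least 2-fold higher, blue points the 820 at least 2-fold lower, grey points the rest, the line marks equal values, and circled genes are named; TSL1 lies far above the line going from 34.6 to 2218 normalized reads, and FCY2 far below it, going from 448 to 23.7.

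Of the 740 higher genes, 45 belong to the chaperone and ribosome lists and 276 to at least 1 of 53 other function lists. A further 300 have a gene name but are in no list, and 119 have no gene name. Of the 820 lower genes, 276 are in the chaperone and ribosome lists, 282 in the function lists, 179 are named in no list and 83 have no name. Counts for a list cover every measured member, also those under the filter. Over the 5732 genes measured that way, 14.6% were higher and 16.6% lower, and the median log2 ratio was -0.00053. Each list count below is to be read against these shares. Where a gene is given with a bare ratio or as part of a subgroup, it was in many cases chosen after its values were seen, and so were LST8, NIS1 and RIE1.

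**Figure D2:**
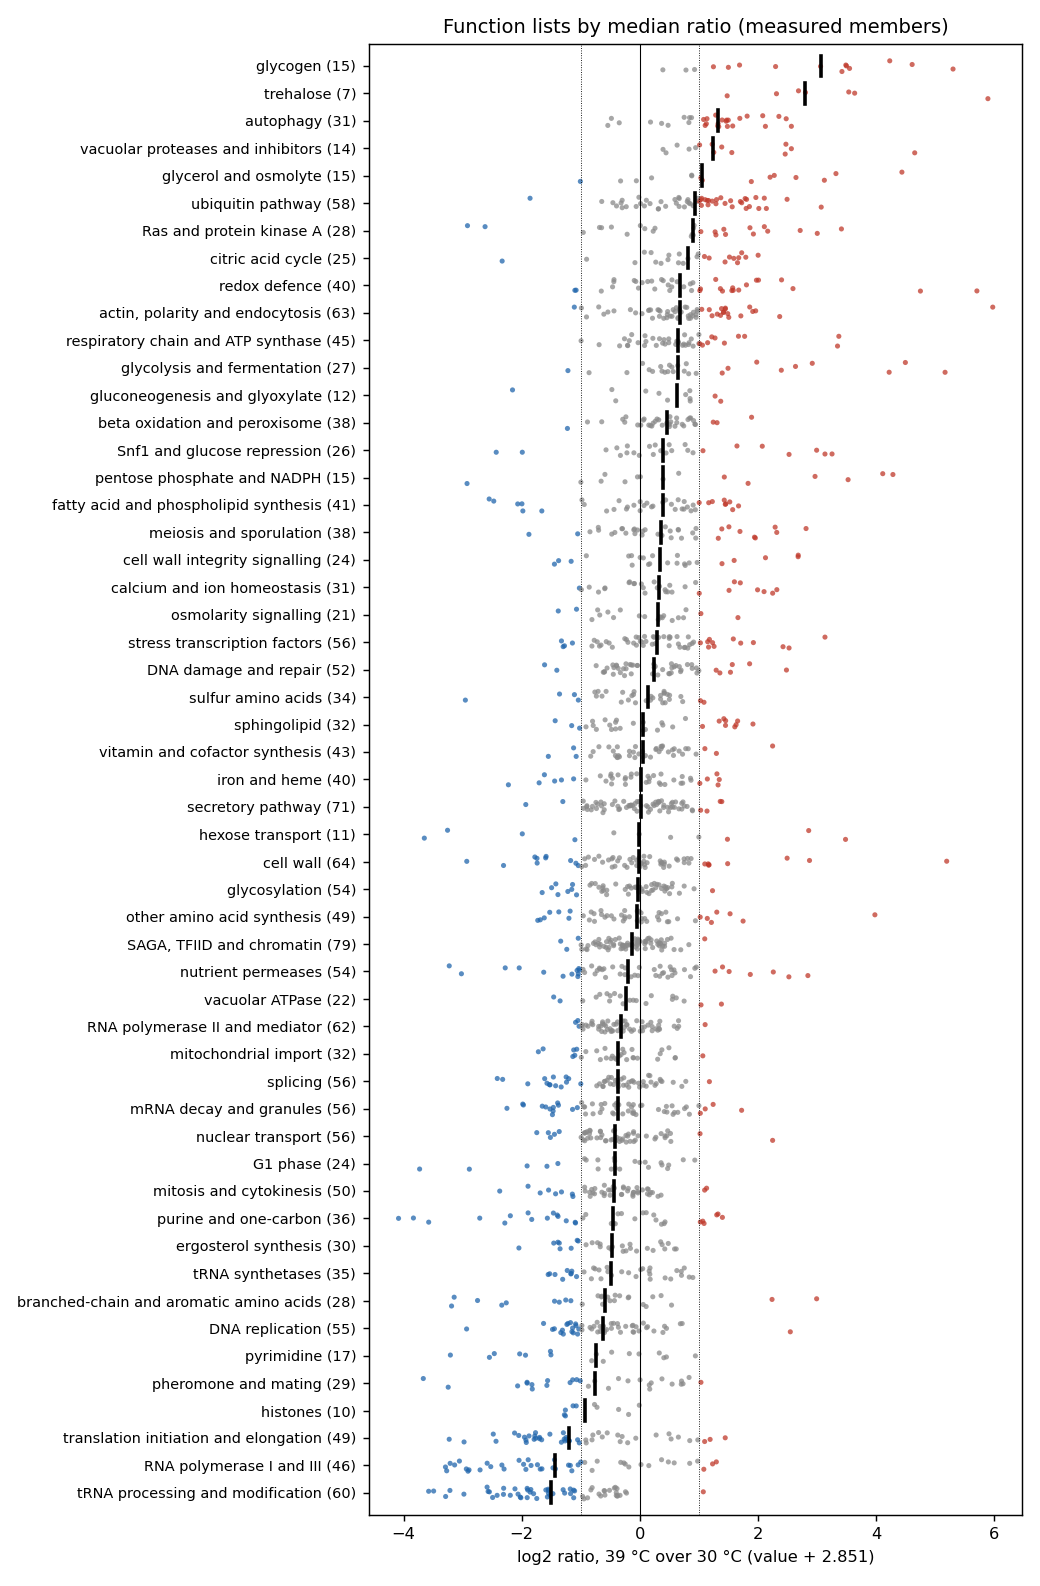
Log2 ratio of 39 °C over 30 °C for every measured member of the 53 function lists, ordered by list median (black bar), with the number of measured members after each name. Red points are at least 2-fold higher, blue points at least 2-fold lower; glycogen and trehalose head the order with medians of 3.06 and 2.80, and tRNA processing ends it with -1.50. Points are spread vertically at random for legibility.

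The storage carbohydrates stood highest among the 53 lists. Trehalose, a sugar made of paired glucose units, protects membranes and proteins in heat, and glycogen is the branched glucose store. All 7 measured trehalose genes were higher, with a median log2 ratio of 2.80, and 12 of 15 glycogen genes were higher and none lower, with a median of 3.06. The trehalose list held 0.10% of all normalized reads at 30 °C and 1.21% at 39 °C, and the glycogen list 0.10% and 0.96%. TSL1 (YML100W, chromosome XIII, 70624 to 73920), the large subunit of the trehalose synthase complex, had 34.6 normalized reads at 30 °C and 2218 at 39 °C, a log2 ratio of 5.89 with an SE of 0.14. TPS1, the synthase itself, went from 99.3 to 1181 and TPS2, the phosphatase that completes trehalose, from 66.8 to 863, ratios of 3.54 and 3.63. TPS3, a regulatory subunit, went from 44.8 to 329.6. Genes that break trehalose down were higher too. The neutral trehalase genes NTH1 and NTH2 went from 64.7 to 431 and from 34.4 to 101, and ATH1, the acid trehalase gene, had a ratio of 2.31. Synthesis and breakdown thus both stood higher. TSL1, TPS1 and TPS2 had larger ratios than the 3 trehalase genes, while the ratios of TPS3 and NTH1, 2.80 and 2.68, lay within an SE of 0.14 of each other.

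Glycogen followed the same form. PGM2 (YMR105C, chromosome XIII, 475897 to 477606), the main phosphoglucomutase that links glucose 6-phosphate to both stores, went from 16.4 to 755, a ratio of 5.30 with an SE of 0.19. UGP1, which makes the activated glucose used by both routes, went from 85.7 to 996 normalized reads, a ratio of 3.50. The glycogen synthase genes GSY1 and GSY2 had ratios of 3.49 and 3.06. GLC3, the branching enzyme, went from 22.5 to 294. On the side of breakdown, GPH1 (YPR160W, chromosome XVI, 861306 to 864014), the glycogen phosphorylase, went from 26.3 to 707 and GDB1, the debranching enzyme, from 17.7 to 382, ratios of 4.61 and 4.23. The phosphorylase gene had a larger ratio than either synthase gene. SGA1, a glucoamylase known from sporulating cells, went from 3.96 to 30.5. The 3 list members within 2-fold were PGM1, PIG1 and GLG2, with ratios of 0.39, 0.78 and 0.93. With rapamycin the same lists had medians of 2.35 and 2.62, with all 7 and again 12 of 15 genes higher.

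**Figure D3:**
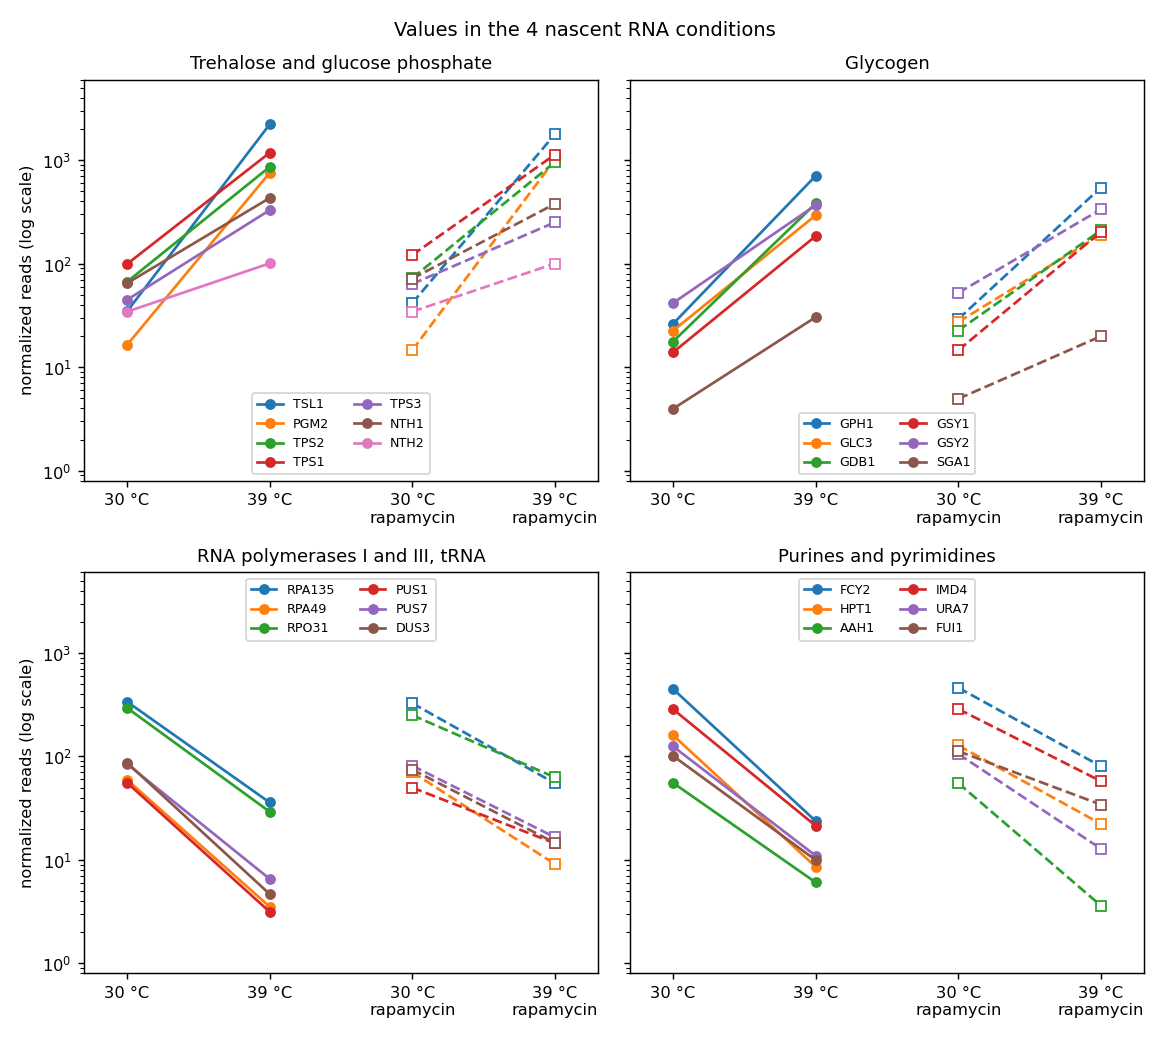
Normalized reads (log scale) in the 4 nascent RNA conditions, in which filled circles joined by solid lines are the columns without rapamycin and open squares joined by dashed lines those with 1 µM rapamycin. The storage carbohydrate genes of the upper panels, such as GPH1, from 26.3 to 707, were all higher at 39 °C, and the polymerase, tRNA and nucleotide genes of the lower panels, such as RPA135, from 338 to 35.9, were all lower.

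Among the genes of sugar entry, members of one family went in opposite directions. Of 11 measured hexose transport genes, 3 were higher and 4 lower. HXT3 (YDR345C, chromosome IV, 1162957 to 1164660), a low-affinity glucose transporter, went from 583 to 58.4 normalized reads, a ratio of -3.26. HXT1, a transporter of the same low-affinity kind, went from 155 to 9.73, a ratio of -3.65. HXT5 and HXT7, transporters used when glucose is scarce or growth is slow, went the other way, from 7.63 to 114 and from 7.71 to 73.7. The HXT genes resemble each other closely, so the split of reads between them is uncertain. Among the sensors, SNF3, which reads low glucose, had a ratio of 1.48, and STD1, a regulator in the same pathway, had -1.99.

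The kinases of the next step also differed among themselves. HXK1 (YFR053C, chromosome VI, 253592 to 255049), a hexokinase that is repressed by glucose, went from 32.5 to 1266 normalized reads, a ratio of 5.17 with an SE of 0.14. HXK2, the hexokinase of glucose-grown cells, had 331 normalized reads at 30 °C and 284 at 39 °C, a ratio of -0.22. GLK1, the glucokinase, went from 68.01 to 1593, and EMI2, which resembles it, from 28.3 to 233. The ratios of HXK1 and HXK2 differed by 5.38 on the log2 scale, with an SE of 0.16. In glycolysis and fermentation, 9 of 27 genes were higher and 1 lower, with a median of 0.64. Of the 27 ratios 24 were above 0, and the list's sum went from 7.67% to 11.57% of the column. TDH1, PYK2, GPM2 and ENO1 had ratios of 4.22, 2.63, 2.39 and 1.98. Their close relatives TDH3, CDC19, GPM1 and ENO2 had 0.79, 0.50, 0.54 and 0.95. PFK26 and PFK27, whose products make the activator of phosphofructokinase, went from 24.1 to 72.8 and from 77.8 to 31.8, so that one was higher and the other lower.

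The same question was put to 72 pairs of genes for related proteins, of which 70 were measured. In 45 pairs the ratios of the members differed at least 2-fold, in 30 at least 4-fold and in 19 at least 8-fold. The like share among pairs of unrelated genes was not counted. Over all kept genes the ratios ran from -2.33 at the 5th percentile to 2.05 at the 95th, so unrelated genes often differ too. The counts are therefore a description and not a trait of related genes. In 8 pairs both members were at least 2-fold higher, in 1 both lower, and in 6 one was higher and the other lower. With rapamycin, 34 of the 45 pairs differed at least 2-fold in the same direction. Both members passed the filter in 60 pairs. Reads shared by near-identical members could be split either way, which touches TDH1 and TDH3, ENO1 and ENO2, TIF1 and TIF2 and the HXT and histone pairs among others.

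**Figure D4:**
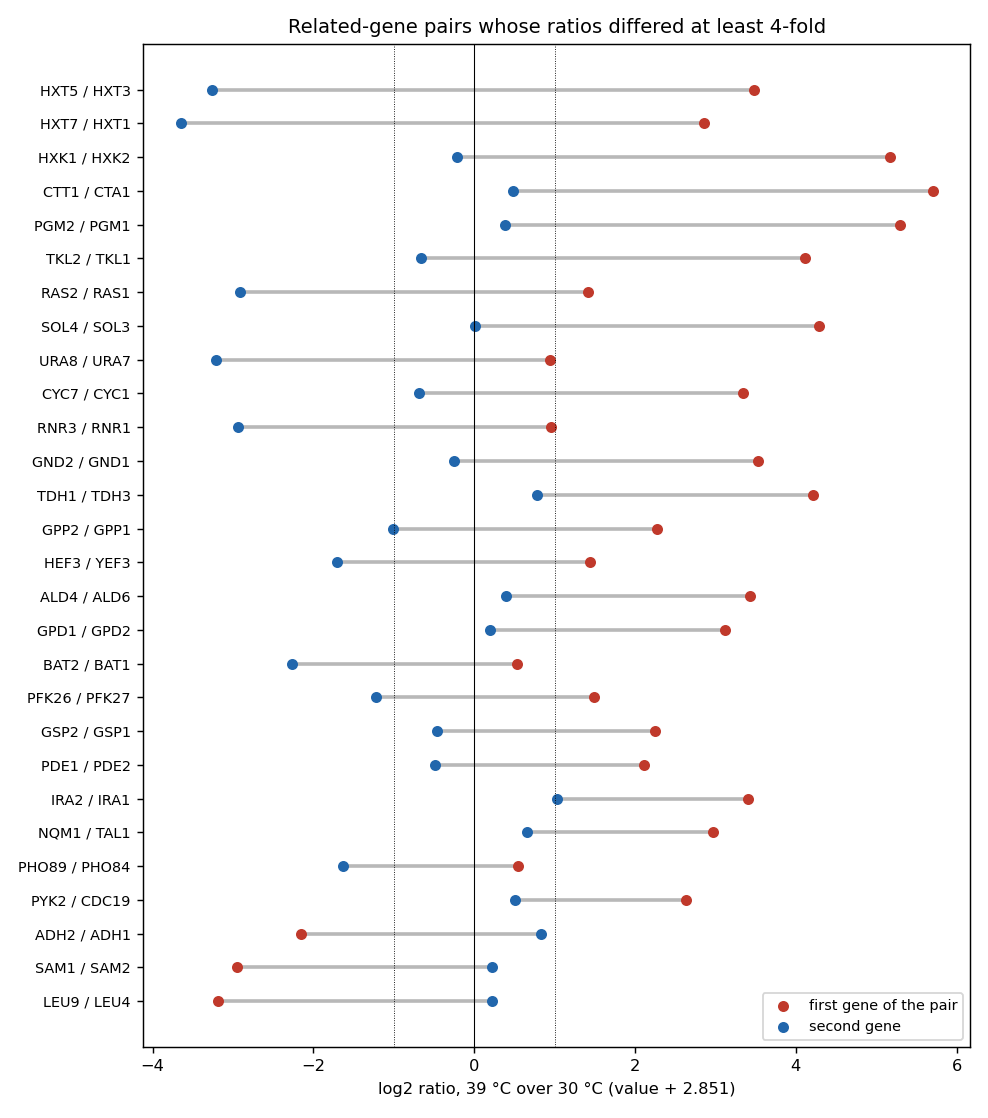
Log2 ratio of 39 °C over 30 °C for both members of 28 of the 30 related-gene pairs whose ratios differed at least 4-fold. The red point is the first gene named, the blue point the second, and dotted lines mark 2-fold; HXK1 lies at 5.17 and HXK2 at -0.22, while for LEU9 and LEU4 the order is turned, at -3.19 and 0.22.

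The pentose phosphate route, which makes NADPH and ribose, also held related genes with unlike ratios. SOL4 and GND2, minor forms of the lactonase and of the 6-phosphogluconate dehydrogenase, went from 8.18 to 212 and from 5.91 to 97.9 normalized reads. The main forms SOL3 and GND1 had ratios of 0.01 and -0.25. TKL2, the minor transketolase, went from 7.33 to 173, against a ratio of -0.66 for TKL1. NQM1, a relative of the transaldolase gene TAL1, had 2.96 and TAL1 0.66. RKI1, which makes ribose 5-phosphate and has no second form, stood apart from the route's other genes with 44.7 at 30 °C and 3.41 at 39 °C, a ratio of -2.93. Over the whole list, 6 of 15 genes were higher and 1 lower.

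Glycerol is the osmolyte of yeast, and its genes were higher in 9 of 15 cases and lower in 1, with a median of 1.06. GPD1, the first enzyme of glycerol synthesis and a stress gene, went from 55.9 to 508, a ratio of 3.12, while its relative GPD2 had 0.20. GPP2 and GPP1, the phosphatases of the next step, went in opposite directions, from 27.2 to 142 and from 655 to 324. GRE3, an aldose reductase, went from 19.7 to 485 and GCY1, a glycerol dehydrogenase, from 21.1 to 236. GUT2, which uses glycerol in mitochondria, had a ratio of 2.64. Of 21 osmolarity signalling genes, 2 were higher and 2 lower, that is 9.5% each, below the share over all genes on both sides.

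Mitochondrial genes split by function. In the citric acid cycle, 10 of 25 genes were higher and 1 lower, with a median of 0.81. CIT1, the mitochondrial citrate synthase, went from 85.97 to 353 and KGD1, of the ketoglutarate dehydrogenase, from 57.5 to 206. All 4 genes of succinate dehydrogenase, SDH1 to SDH4, were higher, with ratios between 1.09 and 1.72. None of the 5 pyruvate dehydrogenase genes reached 2-fold, and their ratios ran from 0.36 to 0.97. In the respiratory chain and ATP synthase, 10 of 45 genes were higher and none lower. CYB2, which passes electrons from lactate, went from 21.1 to 244. The cytochrome c genes differed: CYC7 went from 8.65 to 114 and CYC1 from 127 to 77.7. None of the 13 ATP synthase genes taken was 2-fold higher, and 5 of 10 coenzyme Q genes were. With rapamycin 33 of the 45 respiratory genes were higher, and the list median was 1.30 against 0.64 without it. Whether those differ was not tested. In mitochondrial import 1 of 32 genes was higher and 6 were lower, the latter close to the share over all genes, among them TIM10 with 92.5 at 30 °C and 26.1 at 39 °C.

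Defence against oxidants was higher in 16 of 40 genes and lower in 2, with a median of 0.69. CTT1 (YGR088W, chromosome VII, 654634 to 656322), the cytosolic catalase, went from 15.8 to 970.0 normalized reads, a ratio of 5.70 with an SE of 0.19. CTA1, the peroxisomal catalase, had 21.96 at 30 °C and 31.7 at 39 °C. GAD1, a glutamate decarboxylase, went from 18.8 to 578. The peroxiredoxin genes AHP1 and PRX1 went from 160.3 to 980.4 and from 30.7 to 174. YHB1, which removes nitric oxide, and GRX4, an iron-handling glutaredoxin, were lower, with ratios of -1.08 and -1.10. With rapamycin 21 of the 40 were higher and none lower.

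Genes of self-digestion and of protein turnover stood higher as groups. Autophagy carries cell material to the vacuole, the yeast lysosome, and 21 of its 31 measured genes were higher and none lower, with a median of 1.32. Of the 31, 13 were under the filter, the values were small, and with a pseudocount of 0.5 of the median 10 were higher. ATG8 (YBL078C, chromosome II, 80378 to 80731), the protein attached to the growing autophagy membrane, had 4.21 normalized reads at 30 °C and 33.2 at 39 °C, a ratio of 2.35 with an SE of 0.30. ATG7, the enzyme that activates Atg8, went from 6.86 to 39.5, and ATG34, a receptor for selected cargo, from 1.70 to 22.5. Among 14 genes of vacuolar proteases and their inhibitors, 9 were higher and none lower. PRB1, protease B, went from 133 to 744. Its inhibitor gene PBI2 went from 7.37 to 53.8, and TFS1 (YLR178C, chromosome XII, 513162 to 513821), an inhibitor of carboxypeptidase Y, from 11.7 to 363. Enzymes and inhibitors were therefore higher side by side, and TFS1 had the largest ratio of the list, 4.65. The vacuolar proton pump did not share this, with 2 of 22 genes higher and 2 lower.

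In the ubiquitin pathway, which marks proteins for destruction, 27 of 58 genes were higher and 1 lower, with a median of 0.94. UBI4 (YLL039C, chromosome XII, 64062 to 65207), the polyubiquitin gene, went from 92.95 to 801, a ratio of 3.07. Its repeats resemble each other and the other ubiquitin genes, so its count is uncertain. UBC4, a conjugating enzyme for damaged proteins, went from 69.8 to 259.8, while the near relative UBC5 had 6.65 at 30 °C and 11.5 at 39 °C. CDC48, the segregase that pulls marked proteins apart, went from 249.7 to 559 normalized reads, a ratio of 1.15. Genes of the GID ligase, which removes gluconeogenic enzymes when glucose returns, were looked at together after their values were seen. Of 8 such genes 6 were higher, with a median of 1.76, and VID30 went from 17.1 to 109.5 and VID28 from 10.9 to 57.7. VID24, which recognises the targets, was not, with a ratio of -0.41. Adaptors of the Rsp5 ligase were mixed, with ECM21 at 1.72, CSR2 at 1.54, ROD1 at 1.03, and ALY1 and ALY2 at 0.17 and 0.36. UBP1, a deubiquitinating enzyme, was the 1 lower gene, with 91.8 at 30 °C and 23.2 at 39 °C.

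Ras and protein kinase A set growth against stress, so their own genes were read one by one. Of 28 genes, 12 were higher and 2 lower, with a median of 0.91. IRA2 (YOL081W, chromosome XV, 171070 to 180309), which switches Ras off, had 102 normalized reads at 30 °C and 1107 at 39 °C, a ratio of 3.41 with an SE of 0.09. With rapamycin its values were 101.1 and 114, a ratio of 0.17. IRA1, its relative, went from 55.5 to 116 without rapamycin and from 68.5 to 51.7 with it. RAS1 and RAS2, the Ras genes, stood on opposite sides and went from 58.9 to 5.32 and from 81.00 to 222 normalized reads. TPK2, a catalytic subunit gene of the kinase, went from 22.03 to 109, and TPK3, another, had a ratio of -0.96. BCY1, the inhibitory subunit, and CYR1, adenylate cyclase, had 1.45 and 1.86. PDE1, a phosphodiesterase that breaks down cyclic AMP, went from 27.5 to 128, against a ratio of -0.48 for PDE2. YAK1, a kinase opposed to protein kinase A, went from 28.2 to 246. RGS2, which turns off the glucose-sensing G protein, went from 76.9 to 10.1. Both activating and braking parts of the route were therefore among the higher genes. MSN2 and MSN4 had ratios of 0.91 and 0.01.

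The other regulators were mixed. Among 56 stress transcription factors, 12 were higher and 4 lower. XBP1, a repressor of the cell cycle, went from 15.7 to 104, and USV1, a regulator of genes for non-fermentable carbon, from 9.03 to 101. In the list of Snf1 and glucose repression, 7 of 26 genes were higher and 2 lower. In it ADR1, an activator of genes for non-fermentable carbon, went from 11.7 to 136. SIP4, an activator of gluconeogenesis in the same list but under the filter, went from 2.21 to 37.4. In gluconeogenesis and the glyoxylate cycle 2 of 12 genes were higher and 1 lower, and 5 of the 12 were under the filter. MIG2, a repressor made in glucose and also of the Snf1 list, had 98.9 at 30 °C and 16.01 at 39 °C, a ratio of -2.43. Among the 4 lower stress transcription factors were ROX1, the repressor of low-oxygen genes, and HAP4, the activator of respiration, with ratios of -1.33 and -1.14. DOT6 and STB3, repressors of ribosome-making genes, went from 91.7 to 229 and from 23.3 to 58.5.

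The actin cortex and endocytosis were higher in 18 of 63 genes and lower in 1, and 54 of the 63 ratios were above 0. Endocytosis in yeast starts from small actin patches. YAP1801 (YHR161C, chromosome VIII, 420373 to 422286), an adaptor of the early patch, went from 23.4 to 133, LAS17, the activator of actin branching, from 30.6 to 123, and BBC1, which holds Las17 back, from 61.2 to 246. Looked at after the values were seen, 9 of 17 patch assembly genes were higher and the 17 ratios lay between 0.16 and 2.37. The 7 genes of the Arp2/3 complex, which branches actin, were all above 0, and only ARC18 reached 2-fold, with 1.22. Among the 9 members of the whole list with a ratio below 0 were CDC42, which sets polarity, with -0.90, and the formin gene BNR1 with -0.99, both within 2-fold. Eisosomes are furrows of the plasma membrane. FMP45 (YDL222C, chromosome IV, 60872 to 61801), one of their tetraspan proteins, went from 4.21 to 440.1 normalized reads, a ratio of 5.97 with an SE of 0.26. Its relative YNL194C went from 1.49 to 107, while SUR7, of the same family, went from 122 to 78.7.

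The cell surface did not move one way. Of 64 cell wall genes, 8 were higher and 10 lower, with a median of -0.01. SPI1 (YER150W, chromosome V, 468370 to 468816), a wall protein of stressed cells, went from 4.92 to 281, PIR3, a covalently bound wall protein, from 16.8 to 141 and YGP1, a secreted glycoprotein, from 77.1 to 447. UTR2, a chitin transglycosylase, went from 331 to 40.97 and SUN4, used in cell separation, from 165 to 47.3. The wall integrity pathway had 5 of 24 genes higher and 3 lower. In it ROM1, an exchange factor for Rho1, went from 20.7 to 148 and SDP1, a phosphatase of the pathway's kinase, from 3.90 to 40.4. The phosphatase genes PTP2 and PTP3 differed, at 1.60 and -1.38. In calcium and ion handling 8 of 31 genes were higher and 1 lower. PMC1, the vacuolar calcium pump, went from 39.6 to 199, RCN2, a calcineurin regulator, from 15.04 to 86.3 and CMK2, a calmodulin kinase, from 36.01 to 164.

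Lipid genes divided by class. In ergosterol synthesis none of 30 genes was higher and 8 were lower, with a median of -0.48. ERG3, the desaturase, had 229 at 30 °C and 53.3 at 39 °C, a ratio of -2.05, and ERG11, ERG6 and ERG5 had -1.46, -1.36 and -1.39. In fatty acid and phospholipid synthesis 9 of 41 were higher and 6 lower. OLE1 (YGL055W, chromosome VII, 398628 to 400160), which puts the double bond into fatty acids, had 987 normalized reads at 30 °C and 166 at 39 °C, a ratio of -2.55 with an SE of 0.08. ELO3, an elongase of very long chains, went from 96.8 to 22.1 and FAA4, which activates fatty acids, from 469.6 to 82.2. The synthase genes FAS1 and FAS2, in contrast, had ratios of -0.44 and 0.00, and ACC1, the carboxylase before them, had -0.10. OLE1, ELO3 and ELO2, the last with a ratio of -1.98, were thus lower, while FAS1, FAS2, ACC1 and the elongase gene ELO1, with 0.44, lay within 2-fold. OPI3, a methyltransferase of phosphatidylcholine synthesis, went from 33.02 to 111, and INO1, which makes inositol phosphate, from 10.4 to 33.6. Of 32 sphingolipid genes 9 were higher and 3 lower. YPK2, a kinase that senses membrane stress, went from 34.7 to 139, YPK1 from 34.6 to 99.4 and SLM1, which brings these kinases to the membrane, from 26.8 to 88.8. AUR1 and SUR2, enzymes of the synthesis itself, had -1.43 and -1.15. Other enzyme genes were higher, with LCB5 at 1.61 and the ceramidase genes YDC1 and YPC1 at 1.65 and 1.42. The 3 lower genes are 9.4% of the list, below the share over all genes.

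Few cell cycle genes were higher. None of 24 genes of the G1 phase was higher, 5 were lower, and 16 of the 24 ratios were below 0. CLN2 (YPL256C, chromosome XVI, 64977 to 66614), a cyclin that commits the cell to division, had 79.8 normalized reads at 30 °C and 8.32 at 39 °C, a ratio of -2.89, whereas CLN1 had 44.4 at 30 °C and 22.3 at 39 °C. PCL1, a cyclin of the Pho85 kinase, went from 98.5 to 4.79. Of 50 genes of mitosis and cytokinesis 2 were higher and 8 lower, the latter close to the share over all genes, and 39 ratios were below 0. CLB1, CDC20 and CDC5 had ratios of -2.37, -1.89 and -1.69. DNA replication had 17 of 55 genes lower and 1 higher. RNR1, the large subunit of ribonucleotide reductase, went from 289.7 to 35.5 and MCM7, of the replicative helicase, from 86.6 to 29.2. POL30, the sliding clamp, had a ratio of -1.63. The 1 higher gene was TAH11, which loads that helicase, with 61.7 at 30 °C and 374 at 39 °C. It lies next to the chaperone gene SSC1. Of 10 histone genes, 5 were lower and none higher, and their sum went from 0.65% to 0.31% of the column. In a bulk culture, fewer cells in a phase and less RNA per cell cannot be told apart. DNA repair, with 6 of 52 genes higher and 2 lower, stood below the share of all genes on both sides.

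After the ribosome lists that are set aside here, the largest group on the low side was the machinery for tRNA and for the other RNA polymerases. RNA polymerase I makes the large ribosomal RNA, and RNA polymerase III makes tRNA. Of 46 genes of these polymerases and their regulators, 29 were lower and 3 higher, with a median of -1.44. RPA135 (YPR010C, chromosome XVI, 577585 to 581196), of the polymerase I core, had 338 normalized reads at 30 °C and 35.9 at 39 °C, a ratio of -3.14 with an SE of 0.17. RPO31, the largest subunit of polymerase III, went from 295 to 29.2, and RPC19, shared by both enzymes, from 45.3 to 2.14. Grouped after the values were seen, the 5 polymerase I subunit genes and the 9 polymerase III subunit genes taken were all lower, with medians of -3.06 and -1.97. The 6 genes of TFIIIC, which guides polymerase III to its genes, were not: none was lower, and TFC3 had 17.7 at 30 °C and 40.6 at 39 °C. RNA polymerase II and mediator genes, by comparison, were lower in 3 of 62 cases and higher in 1.

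Processing and modification of tRNA had the lowest median of the 53 lists, -1.50, with 38 of 60 genes lower and 1 higher. Only 1 of the 60 ratios was above 0, that of TAD2, a tRNA deaminase subunit, with 23.1 at 30 °C and 51.8 at 39 °C. DUS3 (YLR401C, chromosome XII, 922442 to 924448), which makes dihydrouridine, had 86.9 normalized reads at 30 °C and 4.68 at 39 °C, a ratio of -3.58 with an SE of 0.31. TRZ1, which trims the 3' end of tRNA, went from 46.3 to 1.76. PUS1 and PUS7, pseudouridine synthases, went from 55.8 to 3.15 and from 84.6 to 6.56. UTP8, which is used both in tRNA export and in ribosome making, went from 56.2 to 2.40. As a share of the column the list went from 0.62% to 0.18%. The enzymes that load tRNA with amino acids changed less. Of 35 tRNA synthetase genes 9 were lower and none higher. Split after the values were seen, the 20 taken as cytosolic had a median of -0.88 and held all 9 lower genes, such as MES1 with 149.8 at 30 °C and 49.2 at 39 °C. The 13 taken as mitochondrial had a median of 0.52, with none past 2-fold on either side. Whether enzymes of the first group also work in mitochondria was not checked, so the split is not strictly one of compartments.

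Translation factors were lower in 28 of 49 cases and higher in 3, with a median of -1.20, and their sum went from 3.31% to 1.71% of the column. NIP1 (YMR309C, chromosome XIII, 892988 to 895426), a subunit of the initiation factor eIF3, had 472 normalized reads at 30 °C and 57.5 at 39 °C, a ratio of -2.98 with an SE of 0.14. Of the 6 eIF3 genes 5 were lower, and HCR1, the loosely bound member, had -0.21. All 8 genes of eIF2 and its exchange factor eIF2B were lower, with ratios from -1.95 to -1.05. TIF4631, the scaffold that binds the cap complex, went from 306 to 52.5, and RLI1, which recycles ribosomes, from 119.7 to 10.2. YEF3, an elongation factor found in fungi, had 2535 normalized reads at 30 °C and 778 at 39 °C, a ratio of -1.70, and its relative HEF3 had 6.58 at 30 °C and 22.8 at 39 °C. The 3 higher genes were HEF3 and a pair of the elongation step. TEF2, whose copy TEF1 is near-identical so that the split is uncertain, went from 268 to 615, and EFB1 went from 558 to 1196. EFB1 lies next to the chaperone gene SSA1.

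RNA decay and transport were uneven. Of 56 genes of mRNA decay and RNA granules, 13 were lower and 4 higher. Split after the values were seen, 9 of the 11 exosome genes were lower and none was above 0, and MTR3 went from 27.5 to 3.52 and RRP6 from 63.7 to 13.99. The exosome trims and destroys RNA from its 3' end, ribosomal RNA included. The 11 genes of the deadenylase complexes, which shorten the poly(A) tails of messages, had a median of 0.01, with NOT3 higher at 62.5 at 30 °C and 152 at 39 °C. Splicing had 14 of 56 genes lower and 1 higher. PRP43 and SNU13, which also serve in ribosome making, went from 119 to 21.5 and from 264 to 47.2. In nuclear transport, 5 of 56 were lower and 2 higher. The importin genes PSE1, SXM1 and NMD5 had -1.55, -1.45 and -1.52, and GSP2, a Ran gene, went from 10.2 to 59.3 while its copy GSP1 had -0.46.

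Among nucleotide genes, many of purine salvage, of guanine nucleotide synthesis and of the pyrimidines were lower. FCY2 (YER056C, chromosome V, 266512 to 268113), the importer of purine bases and cytosine, had 448 normalized reads at 30 °C and 23.7 at 39 °C, a ratio of -4.09 with an SE of 0.19. HPT1, which reclaims guanine and hypoxanthine, went from 160.1 to 8.58, AAH1, adenine deaminase, from 55.5 to 6.07 and IMD4, of guanine nucleotide synthesis, from 286 to 21.4. IMD4 has near-identical relatives, so that its count is uncertain. Grouped after the values were seen, 8 of 10 genes of purine salvage and the guanine branch were lower. Among the 8 were IMD2, IMD3, IMD4 and GUA1, which belong to guanine nucleotide synthesis and not to salvage. The exceptions were AMD1, AMP deaminase, with 0.27, and GUD1, guanine deaminase, which was higher with 17.3 at 30 °C and 50.1 at 39 °C. Among the 10 ADE genes of new purine synthesis, 3 were higher and 1 lower. ADE17 had 12.97 at 30 °C and 36.7 at 39 °C, and ADE6 had a ratio of -1.09. Of 17 pyrimidine genes 7 were lower and none higher. FUI1, the uridine importer, went from 101 to 9.97, URA7, a CTP synthase, from 125 to 10.98, and FUR1, which reclaims uracil, from 219 to 37.3. URA8, the other CTP synthase, had 59.6 at 30 °C and 117 at 39 °C, a ratio of 0.94.

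Amino acid genes split by pathway. The branched-chain and aromatic list had 9 of 28 genes lower and 2 higher. ILV5 (YLR355C, chromosome XII, 838066 to 839253), which acts in isoleucine and valine synthesis, had 1627 normalized reads at 30 °C and 239.7 at 39 °C, a ratio of -2.75 with an SE of 0.07. ILV3, a step later, went from 746 to 145, BAT1, the mitochondrial transaminase, from 343 to 69.3 and OAC1, a mitochondrial carrier, from 189 to 18.8. LEU9 went from 143 to 13.1 while LEU4, which makes the same enzyme of leucine synthesis, had 188 at 30 °C and 219 at 39 °C. ARO9 and ARO10, which break aromatic amino acids down, were the 2 higher genes and went from 24.4 to 214 and from 44.1 to 218. Breakdown was higher for other amino acids as well: all 5 genes of arginine and proline use that were grouped after the values were seen were higher. CAR2, ornithine transaminase, went from 11.7 to 227, CAR1, arginase, from 27.4 to 98.5 and PUT1, proline oxidase, from 13.00 to 42.8. In the sulfur list 2 of 34 genes were higher and 4 lower. SAM1 went from 234 to 27.7 while SAM2, which also makes S-adenosylmethionine, had 67.9 at 30 °C and 79.5 at 39 °C. The nutrient permeases had 12 of 54 genes lower and 7 higher, on a background of 16.6% and 14.6%. The phosphate transporter gene PHO90 went from 107 to 8.84 and the amino acid permease gene TAT1 from 250.3 to 49.3. The polyamine exporter gene TPO4 went from 35.5 to 272 and the carnitine transporter gene AGP2 from 11.7 to 80.5.

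Mating genes were lower in 13 of 29 cases and higher in 1. MF(ALPHA)1, which encodes the alpha pheromone, went from 453 to 33.02, STE3, the receptor for the partner pheromone, from 170.1 to 15.4 and SST2, which ends the signal, from 71.8 to 17.02. The lists of the secretory pathway, glycosylation, SAGA with TFIID and chromatin, and vitamins and cofactors held medians between -0.14 and 0.05, and between 4 and 9 genes of each were past 2-fold. The medians of the secretory and vitamin lists are above 0 as deposited and below 0 when the columns are rescaled to one total. In the secretory list SEC31 and SEC24, of the coat of vesicles that leave the endoplasmic reticulum, went from 159 to 420.4 and from 147 to 302.

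Several of the highest genes are in none of the lists or belong to less known functions. TMA10 (YLR327C, chromosome XII, 783127 to 783387), a ribosome-associated protein, had 0.75 normalized reads at 30 °C and 365 at 39 °C. The 0.75 is the lowest value of the 30 °C column and may be a floor, which was not tested. Read as a count it is about 2 reads. On that reading the ratio without a pseudocount was 486, and its 95% Poisson interval runs from 135 to 4016. If 0.75 is a floor, neither the ratio nor the interval holds. PHM7, a membrane protein, went from 2.95 to 273 and RGI1, used in respiratory growth, from 4.71 to 327. DCS2, which restrains the enzyme that clears mRNA caps, went from 3.46 to 194. RTN2, a reticulon of the endoplasmic reticulum, went from 10.5 to 336 and MSC1 from 13.6 to 384. On the low side GFD2 (YCL036W, chromosome III, 59026 to 60726) went from 99.4 to 2.52, a ratio of -4.25, with an SE of 0.32. INA1 went from 292 to 20.8 and NRP1, an RNA-binding protein, from 66.6 to 3.79. VTS1, which binds hairpins in messages, went from 49.8 to 2.52 and RFU1, an inhibitor of ubiquitin release, from 41.98 to 1.65. The 39 °C values of RFU1 and ADF1, if read as counts, rest on about 3 and 2 reads. ADF1 went from 35.9 to 1.01, the lowest value of the 39 °C column, which may be a floor. Without a strand setting, the reads of ADF1 and those of a gene that overlaps it cannot be told apart.

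Higher genes often lay beside each other. Of the 715 higher genes with a RefSeq position, 40.4% had an adjacent higher gene, against 27.5% of all 4418 placed kept genes. For lower genes the shares were 43.4% of 772 and 30.7%. The part of adjacency in the values was not tested. The median length was 1500 bases for higher genes, 1164.5 for lower genes and 1374 for all kept genes.

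The heat shock columns with rapamycin give a second view of the same genes. In them 566 of the 4585 genes were at least 2-fold higher, 12.3%, and 588 lower, 12.8%. With the genes under the filter included the shares were 11.2% and 11.4%. Higher in both were 452 genes, 61.1% of those without rapamycin and 79.9% of those with it. Lower in both were 467, 57.0% and 79.4%. Outside the chaperone and ribosome lists, 91 of the 695 higher genes had a ratio at least 2-fold smaller with rapamycin. Choosing genes by a high ratio without rapamycin favours a smaller ratio with it. The like share over all kept genes, and the count with a larger ratio, were not taken. Some of the 91 lie at the edge, such as ATG8, with ratios of 2.35 and 1.35 and SEs of 0.30 and 0.38. Of the 91, 84 had a position, and 11 lay next to a higher gene of the list of chaperones and heat shock proteins. Among the 695, 24 lay next to such a gene. That list is wider than chaperones, and the neighbour of BUD7, for example, is MBF1, a transcriptional coactivator gene. Genes without a position could not be given a neighbour, so these counts leave them out. Among them was YLR217W, with ratios of 3.68 without and -0.34 with rapamycin, the largest difference of the 91. YAL004W, with 4.14 and 2.51, was another. LST8, of the TOR complexes, is one of the 11. It lies next to SIS1 and had 46.8 normalized reads at 30 °C and 856 at 39 °C without rapamycin, and 17.9 and 26.8 with it. TAH11, next to SSC1, went from 39.1 to 25.8 with rapamycin. NIS1, next to APJ1, had 72.04 normalized reads at 30 °C and 272 at 39 °C without rapamycin, and 69.1 and 34.4 with it. IRA2 is not beside such a gene. RIE1, an RNA-binding protein gene, had 63.3 normalized reads at 30 °C and 562 at 39 °C without rapamycin, and 79.1 and 108 with it, and its neighbour MGA1 had 11.9 normalized reads at 30 °C and 76.5 at 39 °C without rapamycin, and 12.98 and 28.1 with it. NOT3, one of the 91, went from 55.02 to 56.7 with rapamycin. SIP4, a gluconeogenesis activator, is under the filter and so not among the 91, and went from 2.10 to 5.20 with rapamycin. Other genes among the highest had like ratios in both settings. CTT1 had 5.70 without and 5.69 with rapamycin, FMP45 had 5.97 and 6.06, and PGM2 had 5.30 and 5.87. In these columns the loss of Hsf1 from the nucleus and any other action of rapamycin cannot be told apart.

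**Figure D5:**
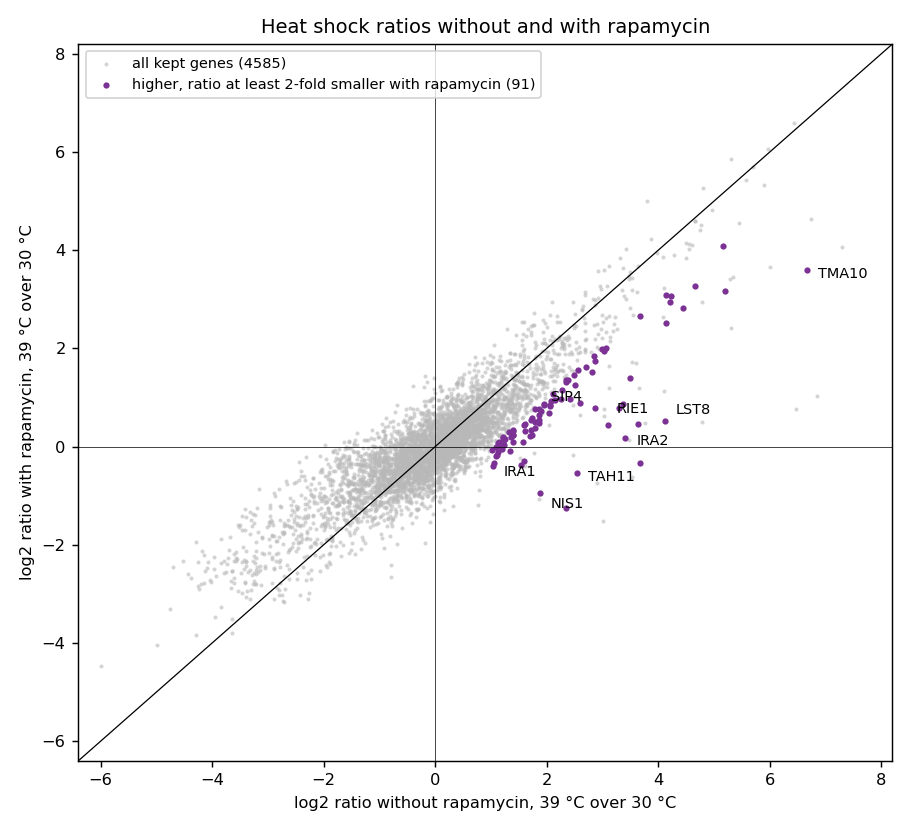
Log2 ratio of 39 °C over 30 °C without rapamycin (x axis) and with 1 µM rapamycin (y axis) for the 4585 kept genes (grey), with the line of equal ratios. Purple points are the 91 higher genes outside the chaperone and ribosome lists whose ratio was at least 2-fold smaller with rapamycin. IRA2 lies at 3.41 on the x axis and 0.17 on the y axis. The label SIP4 marks the place of a gene under the filter, for which no point is drawn.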

How the data were processed

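Nascent RNA of a Saccharomyces cerevisiae strain was measured in 4 conditions. The deposited table holds, per the file headers, the authors' averages of normalized reads per gene, which are signal values and not a raw read count. HTSeq and genome build sacCer3 are named in the submitters' processing notes. For the aligner, annotation, strand setting, scaling and multiply mapping reads, settings were not given in the sources used here. Counts of overlapping genes and near-identical copies may therefore be split either way. All values were multiples of 0.005. Of the values under 6, between 98.3% and 100% matched, within 0.0055, a sum of whole multiples of 2 steps for their column. Each column was taken to be a mean of 2 scaled libraries, without division by length. No SD and no test can be given, because only the averages are used. The design took 1 deposited value per condition and was applied unchanged. The SEs use the 2 steps read for each column.

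Log2 ratios were computed after adding a pseudocount of 2.851, that is 0.1 of the median of all values. Genes with a mean under the 20th percentile, 14.442, were left out of counts over all genes, and list counts keep every measured member. SEs and the 95% Poisson intervals describe counting error alone. Reads that carry no molecular identifiers are not independent molecules. The ratios were computed with Python 3.11.15, numpy 2.4.6, pandas 2.3.3 and scipy 1.17.1, tested on simulated data, and drawn with matplotlib 3.10.9. Names and positions come from RefSeq, assembly R64, in which 5351 loci matched. Of 2077 listed names 2017 matched a row, and the others were left out.

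The members and the lists were chosen with earlier results of these data known. Named genes are the 15 highest and 15 lowest named genes outside the chaperone and ribosome genes, up to 4 highest and 4 lowest members past 2-fold in each list or otherwise the member farthest from 0, both genes of each pair described, HSF1, RPB3, MSN2 and MSN4, and genes a result turns on, chosen after their values were seen. Subgroups within lists were also formed after the values were seen. Alternatives were pseudocounts of 0.01 and 0.5 of the median, no filter, a filter at the 40th percentile and columns rescaled to the same total. Promoter motifs were not analysed here, and some single genes that the rule names are not reported here.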

Additional observations from a re-analysis of the deposited data

Results flagged for a closer look

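In 3 genes the heat shock ratio was at least 2-fold in opposite directions without and with rapamycin. ZPR1, which encodes a helper of elongation factor folding, had a log2 ratio of 3.02 without rapamycin and -1.52 with it. YGR210C, which lies next to ZPR1, had 2.34 and -1.25. As the strand setting is not known, the values of these neighbours may not be separate observations. YDJ1, a cochaperone gene, had 1.86 and -1.07. No gene was lower without and higher with rapamycin at that size. The differences were not tested, since the columns have no replicate values.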

How the results depend on the processing

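With pseudocounts of 0.01 and 0.5 of the median the counts of higher and lower genes were 808 and 896, and 527 and 607. Without the filter they were 835 and 954, and a filter at the 40th percentile gave 619 and 620. Columns rescaled to the same total gave 590 and 1018. The median ratio over the genes kept, on the log2 scale, was -0.00053 without the filter, 0.05704 under the stricter filter and -0.1738 after rescaling, which is the construction of those settings. The pairs that differed at least 2-fold numbered 45, 42, 45, 33 and 45 in the order above. Of 333 named genes past 2-fold none changed direction, and 251 stayed past it with the larger pseudocount and 304 after rescaling. Of 8 lists with a median past 2-fold, 3 stayed past it with the larger pseudocount, namely trehalose, glycogen and vacuolar proteases, and 7 after rescaling, the exception being glycerol. List medians changed sign for hexose transport, iron and heme, and vitamins with the stricter filter. They did so for sphingolipids, the secretory pathway, sulfur amino acids, iron and heme, and vitamins after rescaling. No paired analysis was possible because the columns carry no replicate numbers, and no replicate could be left out. Depth limits genes with few reads, such as TMA10, RFU1 and ADF1.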
